A study of Mus musculus with 8 samples.

Results

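Endoplasmic reticulum (ER)-associated degradation (ERAD) genes were followed in mouse pancreatic endocrine cells with both Neurod1 alleles floxed, set against cells with 1 floxed allele. A list of 34 gene symbols defined the set, and 32 of the 23284 genes in the count files carried one of them. Fam8a1 and Hm13 had no row under those symbols and were not analysed here. The 8 libraries came from embryonic day 17 pancreata of mice labelled C56BL/J, all Neurog3Cre+ and RosaTomato+, from which the Tomato-marked cells were sorted. In KO (replicates 8, 9, 17 and 24) both Neurod1 alleles were floxed, and in Het (replicates 6, 7, 13 and 19) a single allele was floxed beside a wild-type allele, so no group had 2 intact alleles after recombination. Cre was driven by Neurog3, a gene of endocrine precursors, and so acts in the lineage of all islet cell types. The labels do not say whether replicates came from separate animals or from pools, and the p-values measure the spread between these libraries.

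Libraries held 11.04 M to 13.43 M counts in KO and 10.35 M to 16.08 M in Het. Neurod1, the transcription factor gene with the floxed alleles, stood at 2.55, 12.9, 22.2 and 21.5 CPM (counts scaled by library size) in KO replicates 8, 9, 17 and 24 and at 133, 138, 141 and 210.5 CPM in Het replicates 6, 7, 13 and 19 (log2 fold change −3.40; edgeR adjusted p = 0.0165), without overlap. All 13 islet endocrine markers were detected, and their summed level ran from 22493 to 44271 CPM in KO and from 66879 to 93315 CPM in Het. The markers did not move alike. Gcg, Ins1, Ins2, Iapp, Isl1, Pcsk2 and Neurod1 itself were lower in every KO library than in any Het library (Gcg 11646 to 20672 CPM against 30174 to 31502 CPM). For Chga, Chgb, Sst, Ppy, Ghrl and Pax6 the groups overlapped (Ppy 169 to 505 CPM in KO and 249 to 330 CPM in Het). Markers of mesenchyme were highest in KO replicate 8 for 11 of 11 genes, with a sum of 10762 CPM there, 416 to 583 CPM in the other KO libraries and 292 to 1332 CPM in Het. Acinar markers summed to 14578 to 49383 CPM in KO, highest in replicate 9 (as were 13 of the 18 markers), and to 11392 to 35556 CPM in Het. Leukocyte markers summed to 372 CPM in KO replicate 8 and 188 CPM in KO replicate 9, and to at most 50.6 CPM in every other library. Y-linked genes summed to 414 to 497 CPM in KO replicates 8, 9 and 24 and Het replicate 7, and to less than 1 CPM in the other 4 libraries. In bulk libraries of sorted cells, fewer cells of a type and less RNA per cell cannot be told apart.

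ERAD removes proteins that fail to fold in the ER. Lectins and mannosidases read the sugar chains of a misfolded glycoprotein, a membrane complex around the ubiquitin ligase Hrd1 (gene Syvn1) and its partner Sel1l moves it out through the membrane and tags it with ubiquitin, and the p97 ATPase (gene Vcp) pulls it into the cytosol for the proteasome. Endocrine cells make large amounts of prohormone in the ER, and several ERAD genes are known targets of the unfolded protein response through the transcription factors Xbp1 and Atf6.

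The genes of the Derlin family gave the clearest difference. Derl2 and Derl3 fell in KO, and the remaining 30 of the 32 genes did not pass the test. Derlins are membrane proteins that work beside Hrd1 where substrates leave the ER. Against the 2 of 32 ERAD genes called lower (6.25%), 0.68% of the 14116 genes tested were called lower (edgeR quasi-likelihood test, Benjamini-Hochberg adjusted p under 0.05 over all tested genes). No ERAD gene was called higher, against 0.34% of all genes, and 1.02% of all genes were called in either direction. At an unadjusted p under 0.05 edgeR had 0 of the 32 higher, against 6.35% of all genes. At an adjusted p under 0.05, DESeq2 and limma-voom with quality weights also called 0 of the 32 higher. Of all 14116 genes, DESeq2 called 520 in either direction, 293 of them lower, and limma-voom 500, 304 of them lower.

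Derl3, a Derlin that is most abundant in secretory tissues, stood at 7.65, 18.7, 11.2 and 14.9 CPM in KO replicates 8, 9, 17 and 24 and at 58.0, 36.3, 51.8 and 50.7 CPM in Het replicates 6, 7, 13 and 19. Every KO library lay below every Het library, and KO replicate 8 was the lowest. The means were 13.1 ± 4.75 CPM in KO and 49.2 ± 9.16 CPM in Het (SD, n = 4 each), for a log2 fold change of −1.91 (SE 0.28; edgeR adjusted p = 0.0151), which leaves 26.6% of the Het level. The values rest on 105 to 234 counts per library in KO and 500 to 751 in Het. The islet endocrine marker sum was also lower in every KO library than in any Het library, and its part in the Derlin values was not tested.

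Derl2, a broadly expressed Derlin, stood at 116, 94.8, 79.3 and 90.1 CPM in the KO libraries and at 301, 270.5, 188 and 179 CPM in the Het libraries, in the same order. The groups did not overlap. Means of 94.9 ± 15.2 CPM in KO and 235 ± 60.3 CPM in Het (SD, n = 4 each) gave a log2 fold change of −1.31 (SE 0.20; edgeR adjusted p = 0.0165), or 40.4% of the Het level. Without KO replicate 8 both genes were called, Derl2 with a log2 fold change of −1.43 and Derl3 with one of −1.73. Both were also called with the acinar markers as a covariate (Derl2 −1.30, Derl3 −1.91) and with the mesenchyme markers as one (Derl2 −1.41, Derl3 −1.80). Derl2 missed the threshold when KO replicate 9, 17 or 24 or Het replicate 6 or 7 was left out (edgeR adjusted p up to 0.0722). Derl3 missed it when KO replicate 17 or Het replicate 6 or 13 was left out (edgeR adjusted p up to 0.0651). When the mean log2 CPM of the Y-linked genes entered the model, Derl3 had a log2 fold change of −1.83 (SE 0.36; edgeR adjusted p = 0.110). Derl2 kept its call there (−1.46; edgeR adjusted p = 0.0428), and 28 of all genes were called in that fit. Neither passed a test for a change beyond 1.5-fold (edgeR adjusted p = 0.138 for Derl2 and 0.0725 for Derl3). In the authors' deposited table, Derl3 (log2 fold change −1.91, adjusted p = 1.00e-06) and Derl2 (−1.31, adjusted p = 0.000475) were the 2 ERAD genes called lower, where 0.698% of 18760 genes were.

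Derl1, the third Derlin and the best known in export of membrane proteins, stood at 89.8, 86.1, 83.6 and 73.4 CPM in the KO libraries and 111, 99.9, 90.01 and 95.3 CPM in the Het libraries. The groups did not overlap, but KO replicate 8 and Het replicate 13 lay almost at the same level. Its log2 fold change was −0.25, with a 95% interval of −0.54 to 0.04 (adjusted p = 0.475, edgeR). Ratios within each library, which do not depend on scaling, set these Derlins side by side. They were chosen after the values were seen and are given as a description, without a p-value. The log2 ratio of Derl2 to Derl1 counts averaged 0.18 (SD 0.20) in KO and 1.21 (SD 0.27) in Het, n = 4 each, a difference of −1.03. For Derl3 to Derl1 it was −2.74 ± 0.62 in KO and −1.03 ± 0.29 in Het, a difference of −1.71. For Derl3 to Derl2 it was −2.92 ± 0.69 in KO and −2.24 ± 0.50 in Het, a difference of −0.68 that was −0.35 without KO replicate 8.

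**Figure D1:**
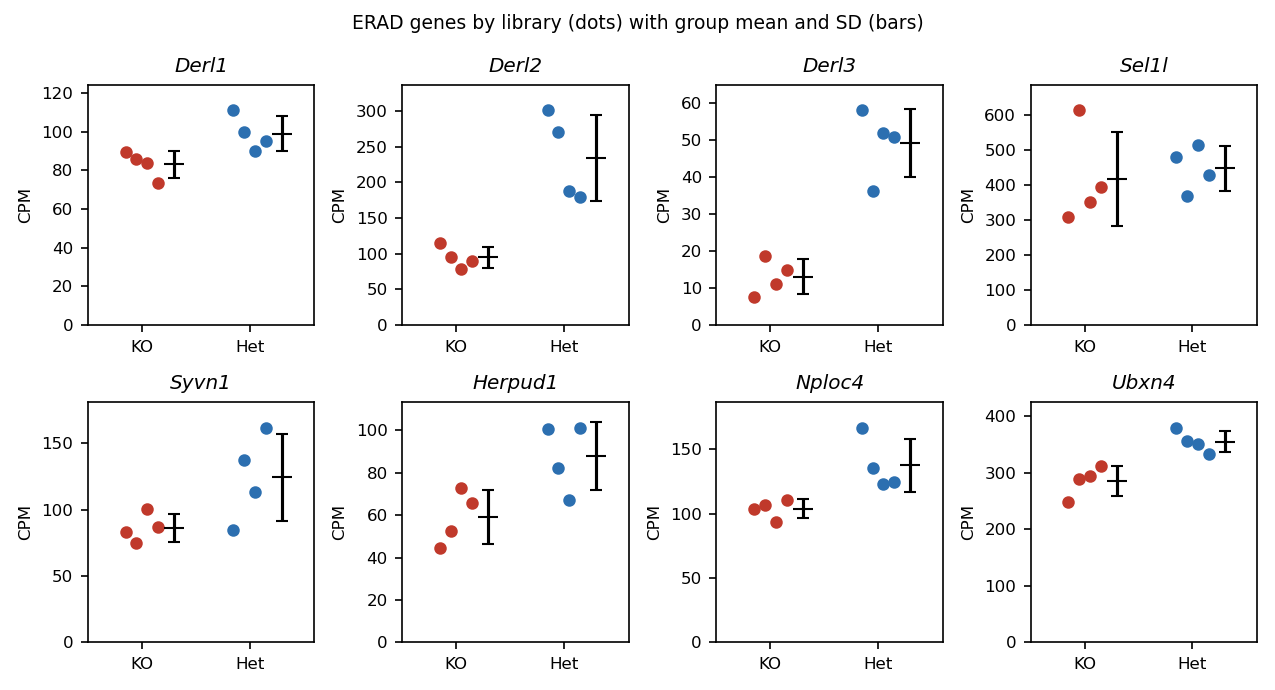
Levels of 8 ERAD genes in CPM (counts scaled by library size), with KO left of Het; each dot is a library, and the bar beside the dots gives the group mean with its SD (n = 4 each). Derl2 and Derl3 dots separate widely between the groups, whereas Sel1l, Syvn1 and Herpud1 dots overlap.

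The sequences before the start sites of Derl3 and Derl2 are shown because these were the 2 genes that fell, and those of Syvn1 and Herpud1 because they had the next largest negative log2 fold changes among the ERAD genes and hold elements of the unfolded protein response. Each is the 250 bases before the annotated start from RefSeq (GRCm38.p6; the counts were made on mm9), written 5′ to 3′ on the gene's strand, with motif matches in capitals.
Derl3, chr10:75893148-75893397, plus strand: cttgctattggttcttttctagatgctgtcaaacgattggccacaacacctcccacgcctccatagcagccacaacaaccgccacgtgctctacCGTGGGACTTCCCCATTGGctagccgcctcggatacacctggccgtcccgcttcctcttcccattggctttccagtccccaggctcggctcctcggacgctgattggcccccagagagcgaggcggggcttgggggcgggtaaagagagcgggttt
Derl2, chr11:71019842-71020091, minus strand, first of 2 annotated starts: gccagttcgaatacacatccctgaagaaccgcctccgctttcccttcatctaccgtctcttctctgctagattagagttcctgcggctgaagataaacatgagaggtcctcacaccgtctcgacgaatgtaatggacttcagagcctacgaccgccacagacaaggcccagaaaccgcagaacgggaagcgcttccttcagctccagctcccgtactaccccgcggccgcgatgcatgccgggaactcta
Syvn1, chr19:6046326-6046575, plus strand: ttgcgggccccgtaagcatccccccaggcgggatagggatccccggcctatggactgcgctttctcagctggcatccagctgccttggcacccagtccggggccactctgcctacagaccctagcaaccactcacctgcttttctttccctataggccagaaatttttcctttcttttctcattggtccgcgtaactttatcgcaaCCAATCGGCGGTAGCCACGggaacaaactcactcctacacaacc
Herpud1, chr8:94386179-94386428, plus strand: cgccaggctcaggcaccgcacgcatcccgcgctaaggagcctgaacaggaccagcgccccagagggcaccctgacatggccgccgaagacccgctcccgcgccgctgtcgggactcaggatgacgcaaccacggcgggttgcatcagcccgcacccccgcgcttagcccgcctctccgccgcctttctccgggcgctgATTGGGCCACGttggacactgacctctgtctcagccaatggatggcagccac
Promoter windows (250 bases before to 50 after a start) were found for 26 of the 32 genes. Derl1, Erlec1, Ube2g2, Aup1, Rnf139 and Rnf5 had none. Both strands were searched for the ER stress response element (CCAAT and CCACG with any 9 bases between them), its second form (ATTGG and CCACG with any base between them) and the unfolded protein response elements TGACGTGG and TGACGTGA, and no matches in these genes overlapped. The first lay before 2 of the 26 genes, 156 to 138 bases before the Derl3 start on the opposite strand and 44 to 26 bases before the Syvn1 start, and in 0.137% of 27025 genes with a window. The second lay 52 to 42 bases before the Herpud1 start and in 0.0444% of all genes. TGACGTGG was found before Ube2j1 and Vcp, and in 0.714% of all genes. TGACGTGA was in none of the 26 and in 0.507% of all genes. Derl2 held none of these spellings in either of its windows, which says only that these letters are not in those windows. A match is a description of the sequence and not a site shown to be in use.

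The rest of the membrane complex was not called. Syvn1, the ubiquitin ligase Hrd1, stood at 83.4, 75.2, 100.4 and 86.8 CPM in the KO libraries and at 84.7, 137, 113 and 162 CPM in the Het libraries. Only Het replicate 6 fell inside the KO range. Its log2 fold change was −0.52 (SE 0.20; edgeR adjusted p = 0.318). Herpud1, a stress-induced membrane protein that recruits Hrd1 partners, stood at 44.7, 52.6, 73.0 and 65.7 CPM in the KO libraries and 100.5, 82.5, 67.4 and 101 CPM in the Het libraries, with Het replicate 13 inside the KO range (log2 fold change −0.58 with an SE of 0.20; edgeR adjusted p = 0.264). Its paralog Herpud2 averaged 42.1 ± 6.42 CPM in KO and 40.3 ± 8.66 CPM in Het (SD, n = 4 each; log2 fold change 0.06). The log2 ratio of Herpud1 to Herpud2 was 0.47 ± 0.19 in KO and 1.13 ± 0.47 in Het, a difference of −0.66, likewise a description without a p-value.

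Sel1l, the adaptor that stabilises Hrd1, stood at 309.9, 613, 351 and 394 CPM in the KO libraries and 479.7, 368, 515 and 427 CPM in the Het libraries. The highest of all 8 libraries was KO replicate 9 and the lowest KO replicate 8, so the KO libraries enclosed the Het range. Its log2 fold change was −0.10, with a 95% interval of −0.57 to 0.37 (adjusted p = 0.895, edgeR). KO replicate 9 was also the library with the highest acinar marker sum, and the part of acinar RNA in the Sel1l level was not tested beyond a fit with the acinar markers as a covariate, which gave a log2 fold change of −0.12.

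**Figure D2:**
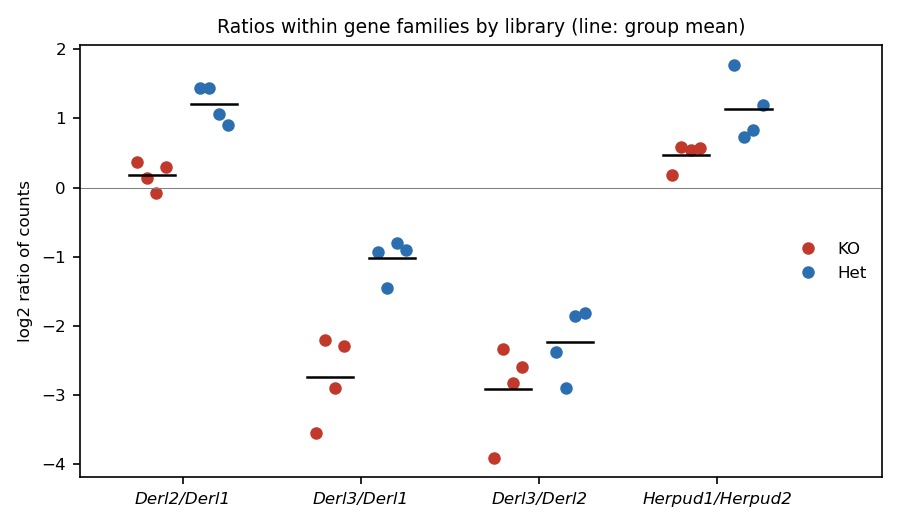
Log2 ratios of raw counts of 2 genes of a family within each library, with KO left of Het in each pair of columns; dots are libraries and lines are group means. KO and Het dots do not overlap for Derl2 to Derl1, Derl3 to Derl1 and Herpud1 to Herpud2, and they overlap for Derl3 to Derl2.

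None of the 6 lectins and mannosidases of the ER lumen passed the test, with adjusted p from 0.716 to 0.991 (edgeR). At an unadjusted edgeR p under 0.05, 0 of the 6 differed, where 5.8% of all genes were lower and 6.35% higher. The log2 fold changes of the 6 lay between −0.19 and 0.03, with a median of −0.05. Edem1, a mannosidase-like protein that hands glycoproteins to ERAD, stood at 205, 373, 166 and 148 CPM in the KO libraries and 297, 266, 282 and 173 CPM in the Het libraries. Like Sel1l it was highest in KO replicate 9. Edem2, which trims the first mannose that marks a glycoprotein for ERAD, averaged 52.0 ± 11.8 CPM in KO and 52.9 ± 6.41 CPM in Het (SD, n = 4 each), again with its highest value, 69.6 CPM, in KO replicate 9. Edem3, which trims further mannoses, had the smallest p of the 6 (192 ± 25.5 CPM in KO and 211 ± 13.3 CPM in Het; log2 fold change −0.14, 95% interval −0.43 to 0.15). Os9, a lectin that reads the trimmed sugar chain at Sel1l, stood at 59.9, 107, 107 and 115 CPM in the KO libraries and 98.2, 78.6, 102 and 130.1 CPM in the Het libraries, lowest in KO replicate 8. Erlec1, the related lectin, and Man1b1, the ER mannosidase, had log2 fold changes of 0.01 and 0.03. Man1b1 was nearly level in Het, at 24.9 to 26.8 CPM, and in KO it stood at 36.4 CPM in replicate 8 and 22.0 to 24.1 CPM in the others.

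The 5 genes of ubiquitin conjugation were also not called (adjusted p of 0.428 or more, edgeR). At an unadjusted edgeR p under 0.05, 0 of the 5 differed, where 5.8% of all genes were lower and 6.35% higher. Ube2g2, the conjugating enzyme that works with membrane ligases, stood at 65.4, 53.0, 49.4 and 54.0 CPM in the KO libraries and 82.0, 74.0, 58.6 and 66.5 CPM in the Het libraries, with KO replicate 8 above Het replicate 13 (log2 fold change −0.34, SE 0.16, adjusted p = 0.428). Aup1, which recruits Ube2g2 to the membrane, averaged 40.0 ± 4.03 CPM in KO and 39.8 ± 8.38 CPM in Het (SD, n = 4 each). The log2 fold changes of the membrane-anchored Ube2j1 and of Ube2g1 were −0.16 and −0.13. Ube2j2, also membrane-anchored, had the widest interval of the 32 genes (log2 fold change 0.68, 95% interval −0.64 to 2.01) at 12 to 71 counts per library, and a 2-fold rise lies inside its interval. Of the other membrane ligases, Rnf139 (log2 fold change −0.0033), Rnf5 (−0.28) and Rnf185 (−0.22) had adjusted p of 0.610 or more. Rnf185, with the smallest p of the 3, averaged 39.6 ± 3.60 CPM in KO and 46.1 ± 4.82 CPM in Het. Rnf5 lay between 88.0 and 111 CPM in KO and between 89.7 and 109 CPM in 3 Het libraries, with Het replicate 6 apart at 170.5 CPM.

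Of the 7 genes of extraction from the membrane, 6 had negative log2 fold changes (46.6% of all genes did) and the median was −0.27, against 0.03 for all genes. At an unadjusted p under 0.05, 3 were lower, where 5.8% of all genes were, and none of the 7 passed the test over all genes. Vcp, the p97 ATPase, stood at 128, 118, 125 and 125 CPM in the KO libraries and 144, 167, 146 and 143 CPM in the Het libraries. All KO libraries lay below all Het libraries, and Het replicate 7 stood apart at the top. The log2 fold change was −0.27 (SE 0.11; edgeR adjusted p = 0.371). Nploc4, which forms with Ufd1l the p97 cofactor that binds ubiquitin chains, stood at 104, 107, 93.8 and 111 CPM in the KO libraries and 167, 135, 123 and 125 CPM in the Het libraries, without overlap (log2 fold change −0.41 with an SE of 0.14; edgeR adjusted p = 0.262). Its partner Ufd1l averaged 69.5 ± 10.4 CPM in KO and 85.2 ± 16.5 CPM in Het (SD, n = 4 each; log2 fold change −0.30, adjusted p = 0.540). Ubxn4, which anchors p97 at the ER membrane, stood at 249, 289, 295 and 311 CPM in the KO libraries and 380, 357, 351 and 334 CPM in the Het libraries, also without overlap (log2 fold change −0.31 with an SE of 0.12; edgeR adjusted p = 0.327).

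Faf2, another membrane anchor of p97, was the only ERAD gene whose KO libraries all lay above the Het libraries, at 77.7, 72.3, 81.8 and 75.2 CPM in KO and 54.3, 65.4, 69.4 and 69.9 CPM in Het (log2 fold change 0.25 with an SE of 0.14; edgeR adjusted p = 0.505). It is 1 of 32 (3.12%), and across all genes 3.55% had every KO library above every Het library. Faf1 and Ubxn6, further p97-binding proteins, had log2 fold changes of −0.15 and −0.12. The J-domain co-chaperones Dnajb12, in the ER membrane, and Dnajb2, in the cytosol, had log2 fold changes of 0.21 and 0.01. Dnajb12 averaged 14.7 ± 5.45 CPM in KO and 12.7 ± 2.85 CPM in Het, with its lowest value, 6.63 CPM, in KO replicate 8. Dnajb2 split the KO libraries, with 49.9 and 43.1 CPM in replicates 8 and 9 and 67.6 and 70.3 CPM in replicates 17 and 24, while the Het libraries lay between 55.0 and 61.3 CPM. Ngly1, which strips sugar chains from extracted glycoproteins, averaged 55.7 ± 6.30 CPM in KO and 57.6 ± 7.71 CPM in Het. Rad23b, which carries ubiquitinated proteins to the proteasome, averaged 118 ± 17.7 CPM in KO and 139 ± 12.9 CPM in Het (log2 fold change −0.23, 95% interval −0.55 to 0.09).

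**Figure D3:**
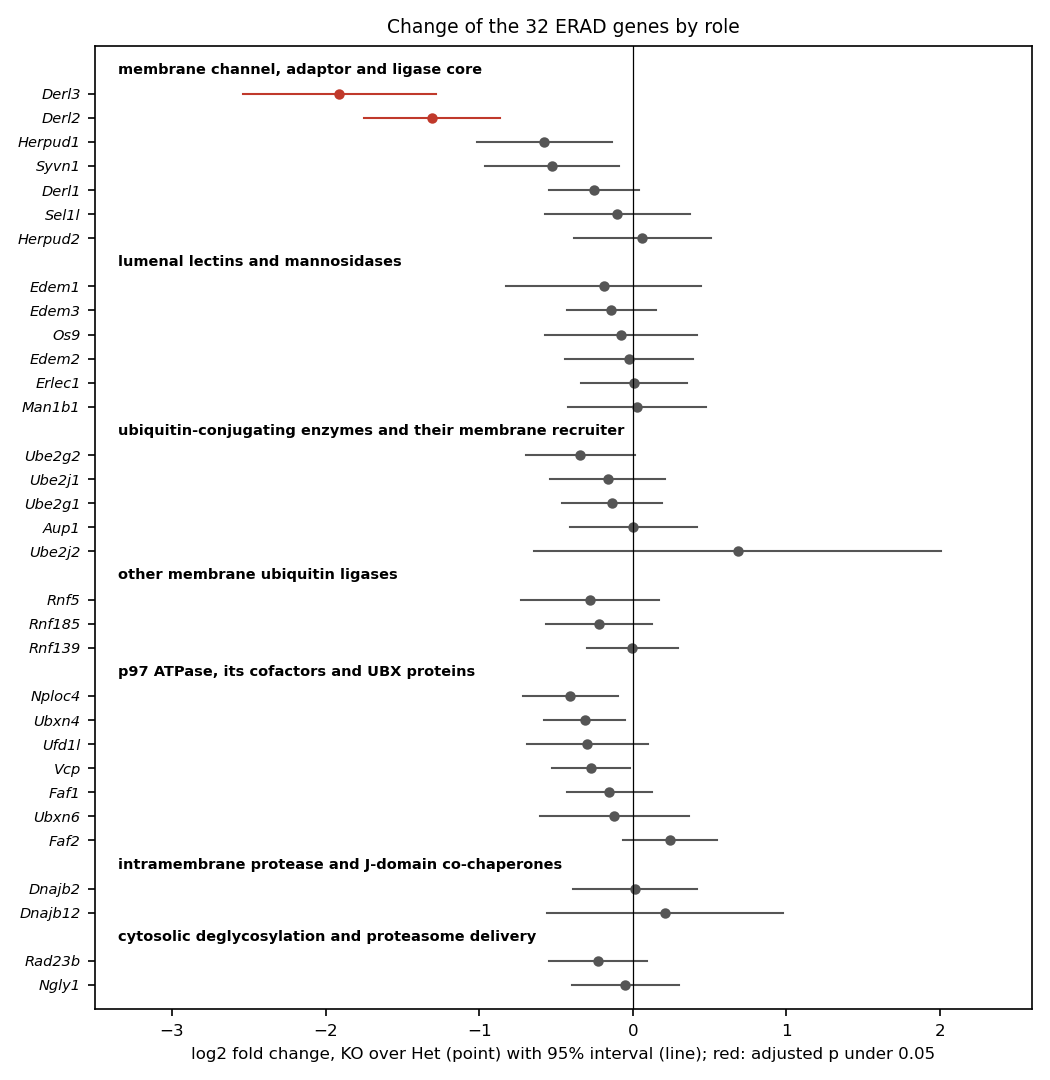
Log2 fold changes, KO over Het, of the 32 ERAD genes (points) with approximate 95% intervals (lines), grouped by role and ordered within a role; red marks an adjusted p under 0.05. Derl3 and Derl2 stand at −1.91 and −1.31, and the lumenal lectins and mannosidases sit close to 0.

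As a set, 24 of the 32 ERAD genes had a negative log2 fold change (75%, against 46.6% of all genes tested), and their median was −0.15 against 0.03 for the whole table. At an unadjusted p under 0.05, 7 were lower (21.9%, against 5.8% of all genes), which besides Derl2 and Derl3 were Herpud1, Syvn1, Nploc4, Ubxn4 and Vcp. KO libraries lay entirely below Het libraries for 6 genes (18.8%, against 4.48% of all genes), namely the 3 Derlins, Vcp, Nploc4 and Ubxn4. For 28 of the 32 the 95% interval stayed within a 2-fold change in either direction, which held for 7556 of all 14116 genes, and for 20 it stayed within 1.5-fold, which held for 2995 of all genes. The 4 whose intervals reached past a 2-fold change were Derl2, Derl3, Herpud1 and Ube2j2. Summed over the 32 genes the level was 3040 ± 222 CPM in KO and 3614 ± 211 CPM in Het (SD, n = 4 each).

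The libraries of each group were not alike in these genes. Of the 32 genes, 11 had their lowest value in KO replicate 8 and 1 its highest, and 7 had their lowest in KO replicate 9 and 3 their highest. Het replicate 6 held the highest value for 12 genes and the lowest for 4. The genes with the largest spread among KO libraries on a log2 scale were Dnajb12 (SD 0.67), Ube2j2 (0.62), Edem1 (0.59) and Derl3 (0.53), and the smallest was that of Vcp (0.05). Without KO replicate 8 the median log2 fold change of the 32 genes was −0.16, and Derl2 and Derl3 were again the genes called.

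**Figure D4:**
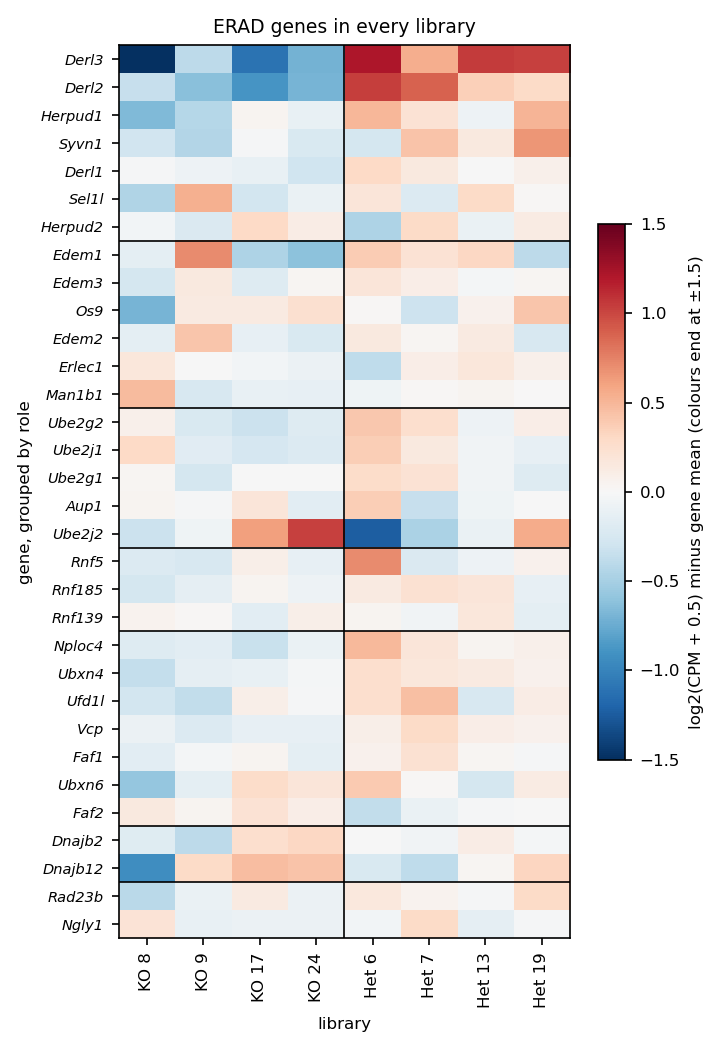
Level of each ERAD gene in each library as log2(CPM + 0.5) minus the gene's mean over the 8 libraries, with KO libraries left of Het libraries and horizontal lines between roles. Derl3 and Derl2, in the top rows, are blue in all KO libraries and red in all Het libraries, while Sel1l, Edem1 and Edem2 are reddest in KO replicate 9.

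Genes next to these in the same process were read from the same test. Of 51 further ERAD genes with a row (of 56 symbols listed), 1 fell (1.96%, against 0.68% of all genes). None rose, where 0.34% of all genes did. Of the 51, 32 had a negative log2 fold change (62.7%, against 46.6% of all genes), and the median was −0.09. The gene that fell was Uggt1, the glucosyltransferase that tests glycoproteins for folding, at 197, 199, 219 and 234 CPM in the KO libraries and 344, 302, 328 and 329 CPM in the Het libraries (log2 fold change −0.62 with an SE of 0.12; edgeR adjusted p = 0.0403). Its groups did not overlap, and it missed the threshold with any 1 library dropped except KO replicate 8 (edgeR adjusted p as high as 0.145), at log2 fold changes that stayed between −0.68 and −0.59. The threshold was also missed with total-count scaling (log2 fold change −0.56, edgeR adjusted p = 0.0551), after adding acinar markers (−0.62, 0.0736) or Y-linked genes (−0.57, 0.196) to the model, and against a 1.5-fold change. Uggt1 was called in 7 of 18 alternatives, among them DESeq2 (log2 fold change −0.62, DESeq2 adjusted p = 0.00022). The authors' deposited table did not call it (log2 fold change −0.62, adjusted p = 0.134). Of 33 proteasome subunits edgeR called none, with 5 lower and 0 higher at an unadjusted p under 0.05, where 5.8% of all genes were lower and 6.35% higher. Their log2 fold changes were negative for 27, where 46.6% of all genes were negative, and had a median of −0.235. DESeq2, by which 2.08% of all genes were called lower, called 1 subunit lower. It was Psmc2, a base subunit of the regulatory particle with the smallest p by edgeR (106 ± 12.3 CPM in KO and 148 ± 11.7 CPM in Het, SD, n = 4 each; log2 fold change −0.48, edgeR adjusted p = 0.146).

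Of 17 ER chaperones and stress regulators 10 fell, where 0.68% of all genes did, and their median log2 fold change was −0.82, against 0.03 for all genes. Hspa5, the gene of the chaperone BiP, stood at 1721, 1894, 2103 and 2345 CPM in the KO libraries and at 3502, 4108, 3277 and 3349 CPM in the Het libraries (log2 fold change −0.82 with an SE of 0.15; edgeR adjusted p = 0.0401), without overlap. Hspa5 missed the threshold with any 1 library dropped except KO replicate 8 (edgeR adjusted p as high as 0.131), at log2 fold changes that stayed between −0.92 and −0.75. It also missed it with total-count scaling (log2 fold change −0.77, edgeR adjusted p = 0.0544), after adding acinar markers (−0.82, 0.0603) or Y-linked genes (−0.86, 0.123) to the model, and against a 1.5-fold change. Hspa5 was called in 7 of 18 alternatives. Among them were DESeq2 (−0.82, DESeq2 adjusted p = 9.25e-06), limma-voom (−0.69, limma-voom adjusted p = 0.0026) and the mesenchyme covariate (−0.80, edgeR adjusted p = 0.0083). The authors' deposited table also called it lower (−0.82, adjusted p = 0.0011). The number of these 17 genes called lower was 11 without KO replicate 8, and 4, 4, 6, 3 and 4 without KO replicate 9, KO replicate 17, Het replicate 6, Het replicate 7 and Het replicate 13. Of all genes, 1.31% were called lower without KO replicate 8, and 0.236%, 0.256%, 0.215%, 0.201% and 0.18% in the other fits, in the same order. The transcription factor genes that act on ERAD genes in ER stress were not called. Xbp1 averaged 229.7 ± 38.7 CPM in KO and 245 ± 21.3 CPM in Het, and Atf6 238 ± 17.4 CPM in KO and 268 ± 24.8 CPM in Het (SD, n = 4 each). Their log2 fold changes were −0.09 and −0.17, with adjusted p of 0.852 and 0.613 (edgeR). Atf4 (−0.09) and Ddit3 (−0.37), of the stress branch that slows translation, had adjusted p of 0.861 and 0.793. Counts per gene do not show splicing of Xbp1 or cleavage of Atf6.

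**Figure D5:**
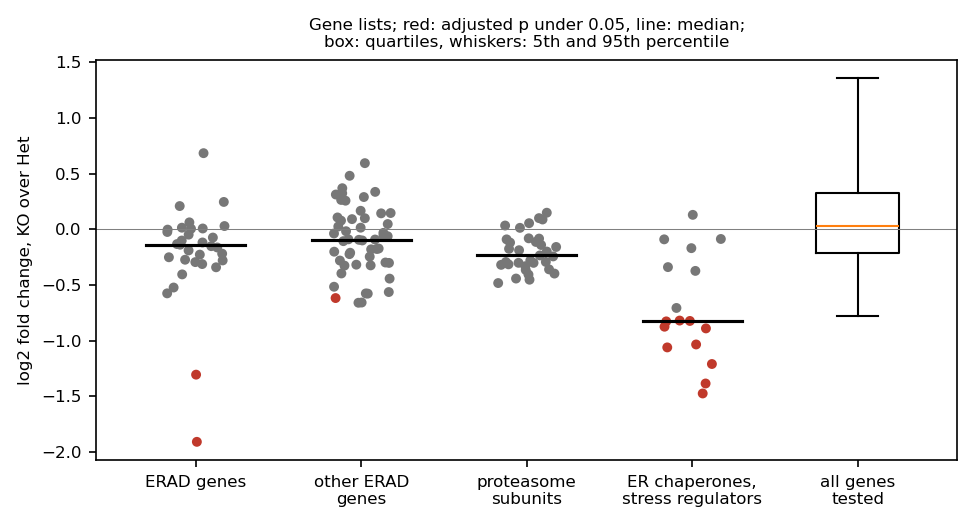
Log2 fold changes, KO over Het, of the genes in 4 lists (dots, red at an adjusted p under 0.05; lines are list medians) beside all genes tested (box for the quartiles with the median, whiskers for the 5th and 95th percentiles). Red dots are 2 of the 32 ERAD genes, 1 further ERAD gene, no proteasome subunit and 10 of the 17 ER chaperones and stress regulators.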

How the data were processed

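Gene expression was measured by RNA sequencing of 8 libraries (KO and Het, 4 each) made with the NuGen Ovation V2 amplification kit and read as 100 bp single ends, per the labels' protocols. For each gene symbol the authors deposited raw counts, without normalization. The submitters' processing notes name TopHat2 2.1.0, Cufflinks 2.0.2, DESeq, bcl2fastq 1.8.4 and build mm9. How reads were counted, and what was done with reads that match paralogs, is not given in the sources used here. A second deposited table holds mean normalized signal per group, the fold change as the ratio of both means, its log2, p-values and adjusted p-values, per the file headers.

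EdgeR 4.0.16 filterByExpr (minimum count 10, minimum total 15) kept 14116 of 23284 genes, including all 32 ERAD genes, so no member was lost to the filter on low values. TMM scaling and the two-sided quasi-likelihood F test without covariates compared KO with Het, and p-values were adjusted over all tested genes (call at 0.05). Intervals are the estimate with its SE times a t quantile (95%). Ratios used counts plus 0.5. The fit was also run on simulated counts with a common dispersion for all genes. Those counts held no cell type or sex differences between libraries, so that run does not show how the fit does on these libraries. The members and lists were chosen with earlier results of these data known. By the naming rule, called ERAD genes and the 6 uncalled with the smallest p are given in full, and others were added after their values were seen. The rule also asked for full values of the gene with the smallest p in each role, but Edem3, Rnf185, Dnajb12 and Rad23b are given by mean and SD. Alternatives were other scalings and filters, DESeq2 1.42.0, limma-voom 3.58.1 with quality weights, covariates for acinar, mesenchyme or Y-linked genes, a glmTreat test for changes beyond 1.5-fold, and fits that each left out 1 library. Libraries held 10.35 M to 16.08 M counts, and Ube2j2 had the fewest counts of the ERAD genes.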

Additional observations from a re-analysis of the deposited data

Results flagged for a closer look

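Of 86 groups of 4 libraries checked (39 genes and 4 ratios in each genotype), 8 held a library that stood far from the other 3, where chance alone gives about 1 in 20. In KO replicate 8, Os9 was low at 59.9 CPM (the other KO libraries 107 to 115 CPM), and Man1b1 at 36.4 CPM (22.0 to 24.1 CPM), Ube2j1 at 167 CPM (114 to 121 CPM) and Ngly1 at 65.1 CPM (51.9 to 52.9 CPM) were high. The log2 ratio of Herpud1 to Herpud2 in KO replicate 8 was low at 0.19 (0.55 to 0.59 in the other KO libraries). That library also held the highest mesenchyme marker sum, 10762 CPM. The part of that RNA in these values was not tested beyond fits of the genes, not of the ratio, with the mesenchyme markers as a covariate. In KO replicate 9, Edem2 was high at 69.6 CPM (44.2 to 47.7 CPM) and Ube2g1 low at 86.6 CPM (104 to 106 CPM), beside the highest acinar marker sum, 49383 CPM. The part of acinar RNA was not tested beyond fits of both genes with the acinar markers as a covariate. In Het replicate 7, Vcp was high at 167 CPM (143 to 146 CPM in the other Het libraries).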

How the results depend on the processing

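Derl2 and Derl3 kept a negative log2 fold change under all 18 alternatives, from −1.46 to −1.17 for Derl2 (called in 12) and from −2.13 to −1.73 for Derl3 (called in 13). The number of ERAD genes called lower was 1 with the Y-linked covariate and 0 against a fold of 1.5, and 0 to 2 with 1 library left out: 0 without KO replicate 17 or Het replicate 6, 1 when KO replicate 9 or 24 or Het replicate 7 or 13 was missing. No alternative called an ERAD gene higher. All genes called numbered 520 by DESeq2, 500 by limma-voom, 66 with the acinar, 563 with the mesenchyme and 28 with the Y-linked covariate, 26 against a fold of 1.5, and 29 to 285 with 1 library left out (285 without KO replicate 8). Further ERAD genes called lower were 0 by total counts, with the acinar or Y-linked covariate and against a fold of 1.5, 2 with the mesenchyme covariate, and 0 to 1 with 1 library left out. Proteasome subunits called lower were 1 by DESeq2 and 3 with the mesenchyme covariate. ER chaperones and stress regulators called lower, an alternative added after seeing the data as were those of the ratios, were 3 with the Y-linked covariate, 1 against a fold of 1.5 and 3 to 11 with 1 library left out. Neurod1 itself, lower under every alternative, missed the threshold with the Y-linked covariate and without KO replicate 9 or any Het library (adjusted p up to 0.0732). Small log2 fold changes changed sign. With total counts as library size they were Edem2 0.031, Rnf139 0.053 and Ngly1 0.0075, and by limma-voom Os9 0.036, Ubxn6 0.16, Erlec1 −0.12 and Man1b1 −0.13. The mesenchyme covariate gave Os9 0.079, Erlec1 −0.016 and Man1b1 −0.099, and the Y-linked covariate Os9 0.10, Erlec1 −0.041 and Man1b1 −0.028. With no filter on low counts they were Erlec1 −0.016, Aup1 −0.017 and Dnajb2 −0.0062, with a filter of 2 CPM in 4 libraries Erlec1 −0.0012 and Aup1 −0.0014, and with the acinar covariate Dnajb2 was −0.0099. With 1 library left out the sign varied for Atf4 (−0.16 to 0.0055), Aup1 (−0.10 to 0.15), Dnajb2 (−0.11 to 0.13), Edem2 (−0.20 to 0.029), Erlec1 (−0.10 to 0.062), Herpud2 (−0.064 to 0.18), Man1b1 (−0.17 to 0.11), Ngly1 (−0.14 to 0.046), Os9 (−0.18 to 0.089), Rnf139 (−0.061 to 0.055), Sel1l (−0.35 to 0.0049) and Ubxn6 (−0.25 to 0.019). The causes were not tested. No paired analysis was possible because KO and Het share no replicate number.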
